A study of Homo sapiens with 4 samples.

Results

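The cytosolic ribosomal protein genes were compared between DaroR cells with and without knockdown of the lncRNA LOC730101. The members were the rows of the count table whose gene names are those of ribosomal proteins of the large (RPL, RPLP) and small (RPS, RPSA) subunit, without pseudogenes, genes of chromosome Y and kinases of RPS6. This name rule gave 78 of the 60606 genes of the table, 47 of the large and 31 of the small subunit, and uses no expression value. All 78 members passed the expression filter of edgeR, as did 19349 genes in all. DaroR cells are LNCaP cells, a prostate cancer cell line, which were made resistant to the antiandrogen darolutamide by rising concentrations of the drug and then long culture at the highest one. The methods say that DaroR cells were kept in medium with darolutamide, a treatment that both groups would share, while the labels of these libraries do not name the drug in the medium. The siRNA sequences and the time from transfection to harvest are not given in the sources used here. All 4 libraries came from DaroR cells. In 2 of them the cells had been transfected with control siRNA (siControl) and in 2 with a pool of siRNAs against LOC730101 (siLOC730101), and polyA RNA was sequenced.

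Ribosomal proteins build both ribosomal subunits together with the rRNAs. Each is needed in about the same number of copies, and their mRNAs are among the most abundant and the shortest of a growing cell. Most of these mRNAs start with a terminal oligopyrimidine (TOP) tract, through which the mTOR pathway and the RNA-binding protein LARP1 set their translation and stability. Several of the proteins have further roles, and loss of one copy of many of the genes causes an inherited anaemia.

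Each library held between 39213498 and 53368158 counts. The command in the header of the table has no paired-end option, and 66.0% to 70.1% of the genes with 1 to 20 counts in a library had an even count, so mates appear to be counted apart and the counts overstate the number of fragments. LOC730101, listed as ENSG00000216775, had 47.4 and 50.6 normalized CPM (the TMM-scaled counts of edgeR's cpm) in siControl and 15.4 and 17.9 in siLOC730101. Its log2 fold change was -1.56 with a standard error of 0.12, and edgeR gave an adjusted p of 4.34e-06. All 8 luminal prostate markers that were checked were expressed, with a summed normalized CPM of 5770 to 6458 over the 4 libraries. PTPRC, the marker of leukocytes, KRT5, of basal epithelium, and COL1A2, of stroma, did not pass the filter, KRT14 had at most 0.632 normalized CPM, and COL1A1 had 11.0 to 14.7. The labels number 2 replicates in each group and say nothing of separate cultures, so the p-values measure the spread between these libraries, which may be technical. For any single value, such as a share, 2 against 2 libraries allow no two-sided p under 0.333 in an exact permutation test.

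Ribosomal protein mRNA made up a larger share of both siLOC730101 libraries than of either siControl library. The 78 genes took 5.70% of all counts in siControl replicate 1 and 6.03% in replicate 2. In siLOC730101 they took 6.40% in replicate 1 and 7.34% in replicate 2. The groups did not overlap, and the mean rose from 5.86% ± 0.236 (SD, n = 2) to 6.87% ± 0.669 (SD, n = 2), 1.17 times the siControl mean. The siLOC730101 libraries differed from each other by nearly as much as the group means, and the difference between the means was 0.531 percentage points without siLOC730101 replicate 2 and 1.48 without replicate 1. Genes of the mitochondrial genome, which are encoded apart from these, took 3.09% and 3.17% of the counts in siControl and 2.64% and 2.76% in siLOC730101, and so were lower without overlap.

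**Figure D1:**
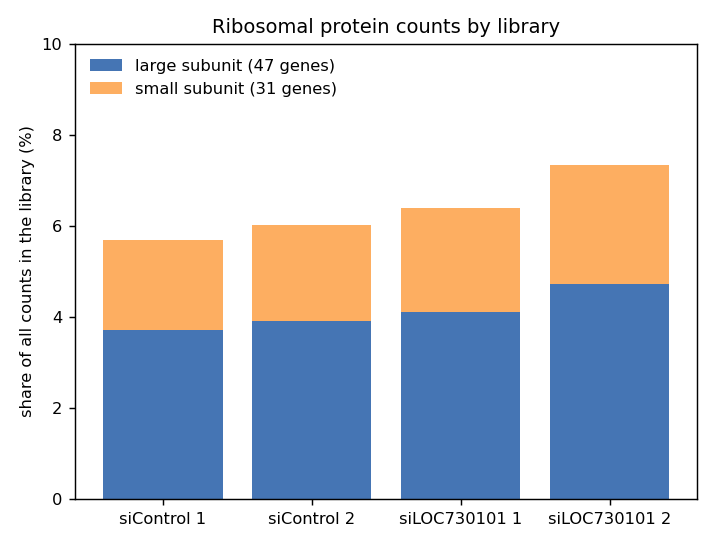
Bars give the share of all counts (%) that fell on ribosomal protein genes in each of the 4 libraries, split into the large (blue) and small (orange) subunit. The share was 5.70% and 6.03% in siControl and 6.40% and 7.34% in siLOC730101.

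Both subunits took part. Large subunit genes held 3.72% and 3.91% of the counts in siControl and 4.11% and 4.72% in siLOC730101. Small subunit genes held 1.98% and 2.12% in siControl and 2.29% and 2.62% in siLOC730101. The ratio of large to small subunit counts was 1.88 and 1.84 in siControl and 1.80 in both siLOC730101 libraries, so it was slightly lower in siLOC730101, without overlap.

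Gene by gene, 76 of the 78 members had a log2 fold change above 0 after siLOC730101, which is 97.4% of them against 49.6% of all genes tested. The median log2 fold change was 0.28 over the members and -0.0021 over all genes tested, and the middle portion of the members, between the quartiles, ran from 0.19 to 0.37. The median was 0.27 for the 47 large subunit genes and 0.29 for the 31 small subunit genes. In 62 members both siLOC730101 libraries lay above both siControl libraries, in 1 both lay below, and in 15 the groups overlapped. Among all genes tested, 21.3% lay above and 20.5% below in this way.

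By the quasi-likelihood test of edgeR, at a threshold of 0.05 on the adjusted p, 9 of the 78 members were significantly higher in siLOC730101 (11.5%, against 0.212% of all genes tested). The number of lower members was 0, against 0.0724% of all genes tested in edgeR. It was also 0 at an unadjusted p under 0.05 in edgeR, against 4.39% of all genes tested, and 0 by the adjusted p of DESeq2, against 0.661% of its genes. With an unadjusted p under 0.05 in edgeR, 59 members were higher (75.6%, against 6.43% of all genes tested). DESeq2 gave 29 higher among the 74 members to which it assigned an adjusted p (39.2%, against 2.46% of its genes).

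**Figure D2:**
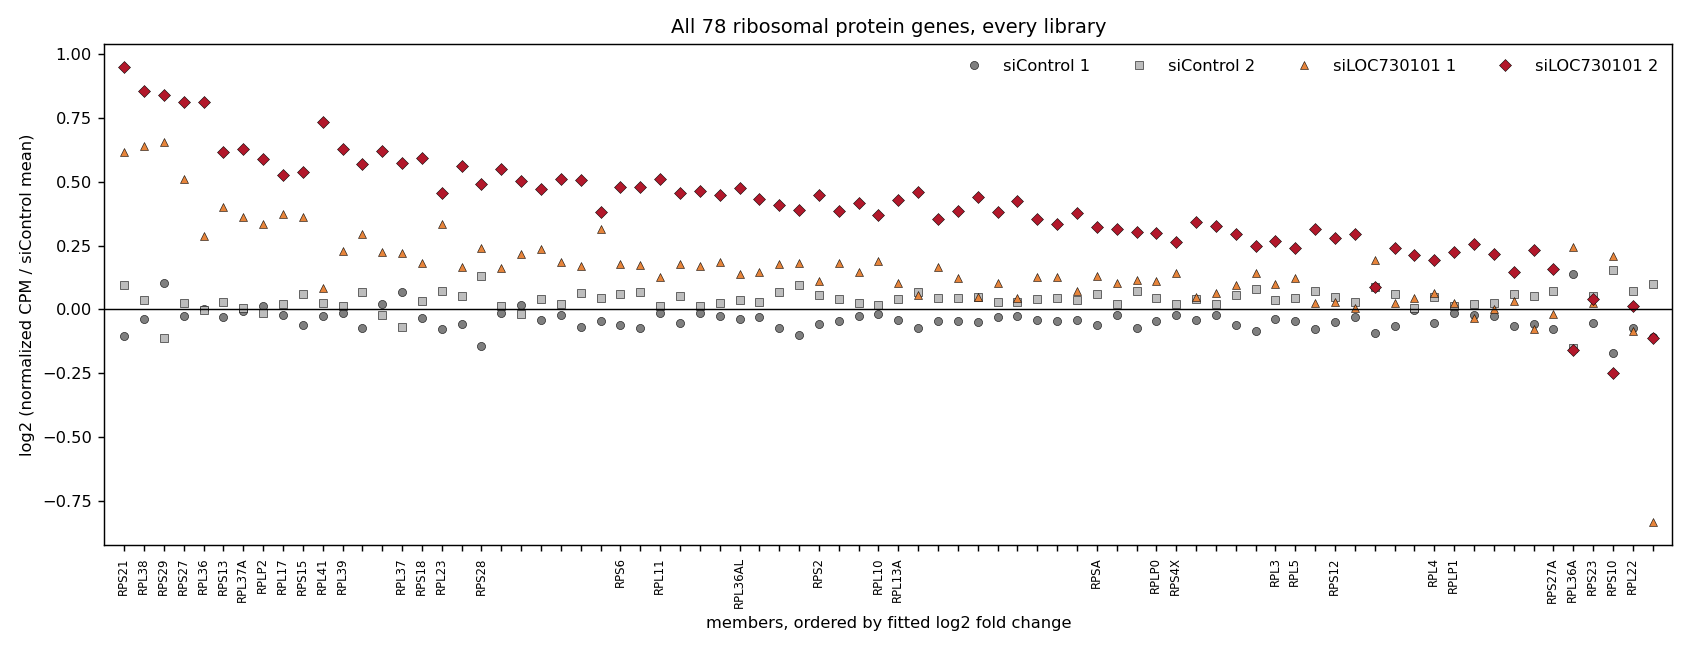
Each column is 1 of the 78 ribosomal protein genes, ordered by fitted log2 fold change, and each point is the log2 ratio of the normalized CPM of 1 library to the mean of the siControl libraries. Red diamonds (siLOC730101 replicate 2) lie highest for most genes and orange triangles (siLOC730101 replicate 1) mostly lie between them and the grey siControl points. Gene names are given for members described in the text.

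The siLOC730101 libraries did not move to the same extent. Relative to the siControl mean, the median log2 ratio over the members was 0.14 in siLOC730101 replicate 1, with 73 of 78 genes above 0, and 0.40 in replicate 2, with 75 of 78 above 0. Replicate 2 exceeded replicate 1 by a median of 0.26 on the log2 scale, close to the median difference between the groups. The same comparison gave 0.083 between siControl replicate 2 and replicate 1. Over all genes tested these medians were 0.0092 and -0.0015. The members therefore also differed together between libraries of one group, and part of the difference between the groups cannot be told apart from this difference between libraries. A fit without 1 library leaves 1 sample in that arm, takes the spread from the pair of the other group alone, and assumes that the lone sample varies like that pair. Without siLOC730101 replicate 1, 69 of the 78 members were called higher (against 4.3% of all genes tested), and without siLOC730101 replicate 2, 12 were (against 0.355%), with a median log2 fold change of 0.41 and 0.14. Without siControl replicate 2, 21 members were called higher (against 0.543%), and without siControl replicate 1, 12 were (against 0.566%).

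The 9 members called higher came from both subunits, 5 from the small subunit and 4 from the large subunit. RPS21, a short protein of the small subunit, rose most. It had 247.2 and 284.2 normalized CPM in siControl and 407.6 and 513.3 in siLOC730101. This is a fold of 1.73 or, on the log2 scale, 0.79 with a standard error of 0.10 (adjusted p = 0.00162, edgeR). Both siLOC730101 libraries lay well above both siControl libraries, and the log2 fold change ran from 0.62 to 0.96 over the fits that omit 1 library.

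RPL38, a large subunit protein known for its role in the patterning of the vertebrate skeleton, had 118.6 and 124.9 normalized CPM in siControl and 189.9 and 220.4 in siLOC730101. It rose by 0.75 on the log2 scale, with a standard error of 0.085 and the lowest adjusted p of the members (5.93e-04, edgeR). RPS29, a zinc-binding protein of the small subunit, had 104.1 and 89.5 normalized CPM in siControl and 152.4 and 173.2 in siLOC730101. It also rose by 0.75 on the log2 scale, with a standard error of 0.093 (adjusted p = 0.00149, edgeR). Here siControl replicate 1 lay above replicate 2, unlike in most members. RPS27, another zinc-binding protein of the small subunit, had 343.5 and 356.3 normalized CPM in siControl and 498.9 and 614.6 in siLOC730101, an increase of 0.67 on the log2 scale with a standard error of 0.089 (adjusted p = 0.00266, edgeR).

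The other 5 rose by less. RPS13, of the small subunit, had 319.7 and 333.7 normalized CPM in siControl and 431.2 and 500.4 in siLOC730101 (log2 fold change 0.51, adjusted p = 0.00954, edgeR). RPL37A, a zinc-binding protein of the large subunit, had 458.5 and 461.9 in siControl and 591.5 and 712.1 in siLOC730101 (log2 fold change 0.50, adjusted p = 0.0146, edgeR). RPLP2, an acidic protein of the stalk that recruits the elongation factors, had 504.3 and 494.2 in siControl and 630.1 and 751.4 in siLOC730101 (log2 fold change 0.47, adjusted p = 0.0196, edgeR). In all of these, siLOC730101 replicate 1 already exceeded both siControl libraries by a margin larger than the gap between them.

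RPS15, whose tail reaches towards the decoding site, had 818.3 and 889.3 normalized CPM in siControl and 1097 and 1238 in siLOC730101 (log2 fold change 0.45, adjusted p = 0.0152, edgeR). RPL23, of the face of the large subunit that meets the small one, had 719.9 and 796.7 in siControl and 956.7 and 1040 in siLOC730101 (log2 fold change 0.40, adjusted p = 0.0316, edgeR). Without siControl replicate 1 its adjusted p was 0.157 in edgeR, and it was the only one of the 9 that lost its call when a library was left out. The other 8 kept an adjusted p under 0.05 in edgeR, with 0.0409 for RPS15 as the highest value, but these fits have the same limit of 1 library in an arm and are no check of stability.

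**Figure D3:**
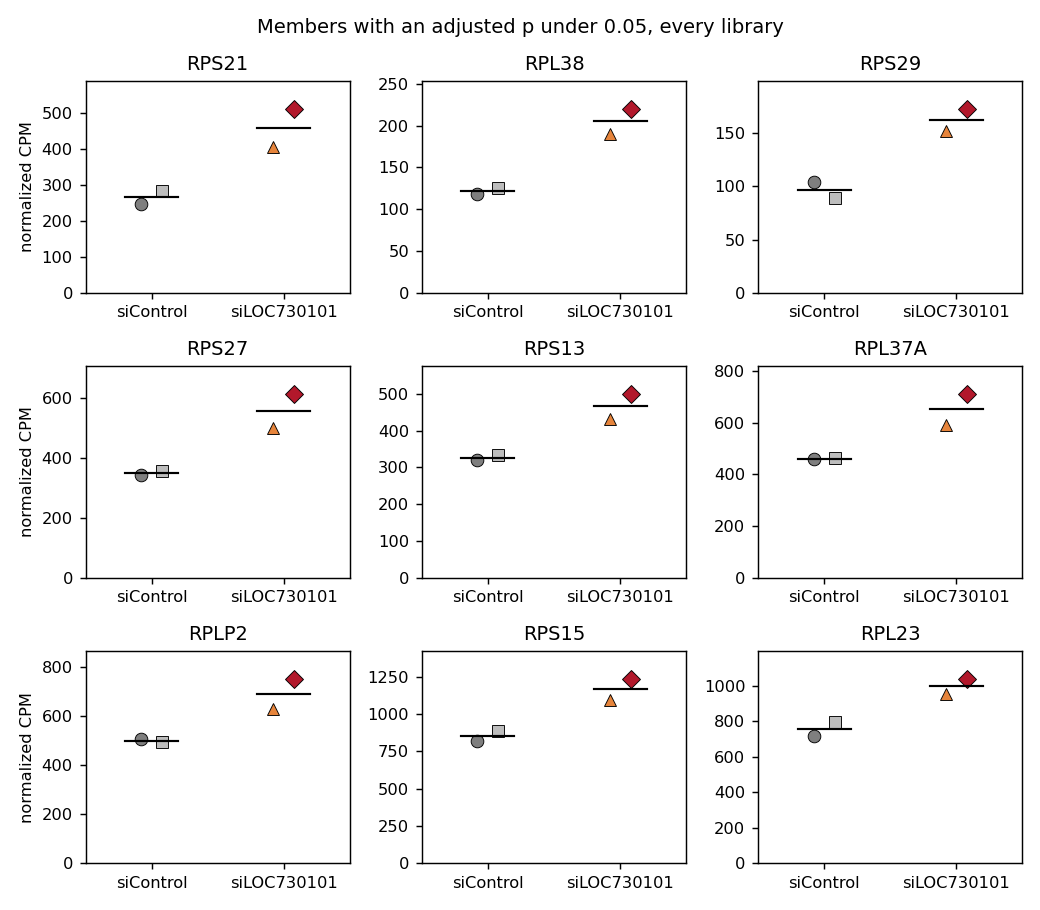
Normalized CPM of the 9 members with an adjusted p under 0.05, 1 panel for each gene with its axis starting at 0; points are the 4 libraries and bars the group means. In every panel both siLOC730101 libraries lie above both siControl libraries, from RPS21 (247.2 and 284.2 against 407.6 and 513.3) to RPL23 (719.9 and 796.7 against 956.7 and 1040).

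The next value belonged to RPL36, of the large subunit, which had a log2 fold change of 0.57 and just missed the threshold (adjusted p = 0.0571, edgeR). It had 485.8 and 484.4 normalized CPM in siControl, and 592.0 and 852.4 in siLOC730101. The siControl libraries were nearly equal, and the siLOC730101 libraries lay far apart, and without siLOC730101 replicate 2 its log2 fold change was 0.28. RPL41, the shortest of the ribosomal proteins, showed this more strongly. It had 407.0 and 422.6 normalized CPM in siControl and 440.1 and 690.8 in siLOC730101, and its log2 fold change of 0.45 (adjusted p = 0.192, edgeR) was 0.083 without siLOC730101 replicate 2.

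The members called higher were mostly those with short coding sequences. The coding length was taken from the canonical transcript of each gene. Among the 9 members with fewer than 300 coding bases, 5 were called higher, RPS21, RPL38, RPS29, RPS27 and RPL37A, with a median of 0.50 for the log2 fold change. The other 4 of this length, RPL41, RPL39, RPS28 and RPL37, had log2 fold changes of 0.37 to 0.45. The median fell to 0.29 in the 28 members from 300 up to 450 bases and was 0.29 in the 19 from 450 up to 600 bases, with 3 and 1 called. In the 19 members from 600 up to 900 bases it was 0.23, and in the 3 longer ones, RPLP0, RPL3 and RPL4, it was 0.19, with 0 called in either bin. Across the 78 members, the log2 fold change and the logarithm of the coding length had a Spearman's rho of -0.42 and a Pearson's r of -0.44. The members share the same 4 libraries, so this is a description.

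Other protein-coding genes also had higher log2 fold changes when their coding sequence was short, with a Spearman's rho of -0.25 across 13415 genes. The median was 0.16 in 274 other genes with fewer than 300 coding bases, with 4.38% called higher, and 0.14 in 559 genes from 300 up to 450 bases, with 1.61% called. It was 0.036 in 3709 genes from 900 up to 1500 bases, and -0.026 in 6354 genes of 1500 bases or more. Between the siLOC730101 libraries, replicate 2 exceeded replicate 1 by a median of 0.16 on the log2 scale in the shortest of these genes, and the median difference was -0.033 in the longest. A shift of short transcripts thus existed both between the groups and between libraries of one group, and its part in the change of the ribosomal protein genes was not tested. By the length of the whole canonical mRNA, other genes with short mRNAs lay closer to the members. Spearman's rho was -0.22 across the members and -0.28 across the other genes. Below 600 bases the median was 0.35 in the members and 0.31 in the other genes, from 600 up to 800 bases it was 0.27 and 0.20, and from 800 up to 1200 bases 0.22 and 0.18. From 2000 up to 3500 bases it was 0.28 in 13 members and 0.032 in the other genes. Some members have a canonical mRNA far longer than its coding sequence. RPL37A has 2992 bases with 276 coding, and RPL37 has 7573 with 291. Whether these cells express such long forms was not examined, so comparisons by mRNA length are uncertain for these members. With a smooth trend on coding length taken off each log2 fold change, the median of the members was 0.16, and 67 of 78 stayed above 0. With mRNA length in its place, the median was 0.083, and 58 of 78 stayed above 0.

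**Figure D4:**
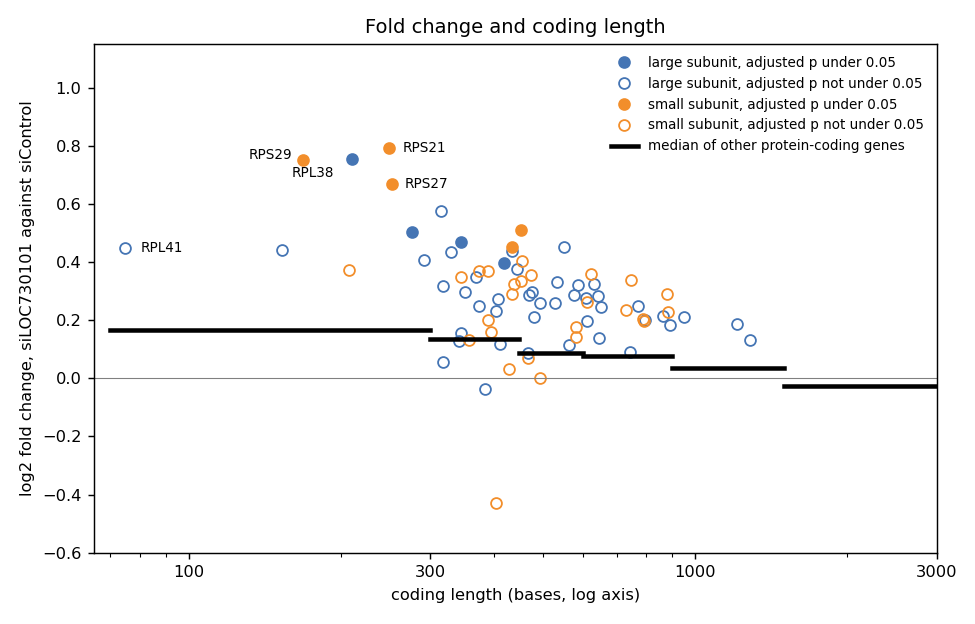
Points are the 78 members, with the coding length in bases on a logarithmic axis and the log2 fold change on the vertical axis, filled where the adjusted p was under 0.05; black lines are the medians of other protein-coding genes in bins of coding length. The shortest members reach 0.79 (RPS21), the members of 600 up to 900 bases have a median of 0.23, and the line of the other genes falls from 0.16 to -0.026.

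The starts of the genes were examined for the TOP tract that most members share. RefSeq promoters on GRCh38.p14 were found for 63 of the 78 members. An unbroken run of at least 8 pyrimidines on the transcribed strand, touching the 5 bases on either side of the annotated start, was found in 48 of the 63 (76.2%), against 11.3% of all 27305 promoters of the same length. The median log2 fold change was 0.29 in the 48 members with such a run and 0.26 in the 15 without it, and this difference was not tested. The windows below cover 10 bases before the start and 20 from it, with the longest pyrimidine run at the start in capitals. The first 8 are called members with an entry and the last 3 are members with small changes, shown for comparison.
RPS21 (chr20:62387093-62387122, plus strand): ctagctgCTTCCTTTCTCTCTCgcgcgcgg
RPL38 (chr17:74203668-74203697, plus strand): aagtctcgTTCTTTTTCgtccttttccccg
RPS29 (chr14:49598691-49598720, minus strand): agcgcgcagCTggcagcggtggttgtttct
RPS27 (chr1:153990752-153990781, plus strand): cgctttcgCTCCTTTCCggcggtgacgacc
RPS13 (chr11:17077648-17077677, minus strand): ctctcgCTCTCCTTTCgttgcctgatcgcc
RPL37A (chr2:216498834-216498863, plus strand): gcgTCTCTTCCTTTCTgggctcggacctag
RPLP2 (chr11:809957-809986, plus strand): tcggcgCCTTCCTTTTCCTCCCTgtcgcca
RPS15 (chr19:1438386-1438415, plus strand): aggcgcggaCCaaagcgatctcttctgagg
RPL22 (chr1:6199576-6199605, minus strand): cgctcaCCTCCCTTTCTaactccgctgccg
RPS23 (chr5:82278335-82278364, minus strand): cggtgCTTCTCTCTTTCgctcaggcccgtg
RPLP1 (chr15:69452808-69452837, plus strand): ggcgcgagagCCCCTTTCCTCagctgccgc

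RPS21 and RPL22, at opposite ends of the log2 fold changes of well-expressed members, both have such a run at the start, of 15 and 11 bases. RPS29 and RPS15, both called higher, have runs of 2 bases at the annotated start. The window of RPS15 also holds an unbroken run of 8 pyrimidines further downstream, beyond the 5 bases around that start. The split into members with and without a run thus depends on the annotated start, and the start used in these cells was not measured.

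The members with the smallest changes included several that are well expressed. RPL22, an RNA-binding protein of the large subunit, had 116.0 and 128.2 normalized CPM in siControl and 115.2 and 123.1 in siLOC730101 (log2 fold change -0.035, adjusted p = 0.934, edgeR). RPS23, a protein of the decoding centre, had 196.2 and 211.4 in siControl and 207.6 and 209.4 in siLOC730101 (log2 fold change 0.033, adjusted p = 0.931, edgeR). In both, the siLOC730101 libraries lay within or next to the siControl libraries.

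RPS10, RPL36A and RPL17 were barely counted. RPS10 had 62 to 101 counts with a log2 fold change of 5.47e-04, RPL36A had 88 to 154 counts with 0.056, and RPL17 had 228 to 263 counts with 0.45 (adjusted p = 0.475, edgeR). Exons of other rows of the table cover 40.3% of the exon bases of RPS10 and 35.5% of those of RPL17, the readthrough genes RPS10-NUDT3 and RPL17-C18orf32 being the main ones. The share was 22.4% for RPL36A. Reads that match several genes are not counted with the stated command, so the counts of these members are uncertain. The same limit applies to RPL10, RPL30 and RPS2, with 53.4%, 40.8% and 25.9% of their exon bases shared. In all, 46 members share at least 1 exon base with another row.

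Ribosomal protein genes have many processed pseudogenes, and 1350 rows of the table are named as pseudogenes of a member, 91 of them of RPL23A. These rows held 1.22% as many counts as the members, but unevenly. In 1 member, RPS10, they held more counts than the member itself. They held 2525 counts in all, while RPS10 had 62 to 101 in a library. The rows of RPS2 held 68139. Adding the pseudogene counts to their parents left the median log2 fold change at 0.28 and gave 10 members called higher. It turned the direction of RPL36A, to -0.032.

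Levels were compared between members as normalized CPM per kilobase of exon in siControl, with the exon length of the table, which joins the exons of all annotated transcripts. RPS12 had the highest level, 1176, followed by RPS2 with 1047, RPL13A with 785.5, RPLP0 with 687.8 and RPS18 with 676.2. Among the lowest were RPL36A with 0.653, RPS10 with 0.842, RPL17 with 1.96 and RPS29 with 9.84. The order depends on the length used. RPS29, with 9840 annotated exon bases and a canonical mRNA of 295 bases, ranked 74 of 78 by the exon length and 53 by the canonical mRNA, where RPS2 ranked 1 and RPS12 ranked 9. Of the 5 most abundant genes, RPS18 had a log2 fold change of 0.40, RPS2 of 0.29, RPL13A of 0.28, RPLP0 of 0.21 and RPS12 of 0.16, and 0 of them passed the threshold (adjusted p from 0.112 to 0.523, edgeR).

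RPL5 and RPL11 enter the large subunit together, with the smallest of its rRNAs. RPL5 had 686.2 and 732.0 normalized CPM in siControl and 771.3 and 837.9 in siLOC730101 (log2 fold change 0.18, adjusted p = 0.339, edgeR). RPL11 had 259.7 and 264.8 in siControl and 286.0 and 373.9 in siLOC730101 (log2 fold change 0.33, adjusted p = 0.182, edgeR). Both were higher in both siLOC730101 libraries, and neither passed the threshold.

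The stalk proteins differed in size of change. RPLP0, which anchors the stalk, had 2657 and 2829 normalized CPM in siControl and 2966 and 3379 in siLOC730101 (log2 fold change 0.21, adjusted p = 0.253, edgeR). RPLP1 had 1387 and 1415 in siControl and 1424 and 1637 in siLOC730101 (log2 fold change 0.13, adjusted p = 0.57, edgeR). RPLP1 and RPLP2 bind the stalk as a pair, and the log2 fold change of RPLP2, 0.47, was the higher one; the difference between them was not tested.

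RPS6, the substrate of the kinases that share its name, had 1154 and 1255 normalized CPM in siControl and 1363 and 1680 in siLOC730101 (log2 fold change 0.34, adjusted p = 0.125, edgeR). RPSA, also known as the laminin receptor, had a log2 fold change of 0.23, RPS4X, encoded on chromosome X, of 0.20, and RPL10, which joins the large subunit late in its assembly, of 0.28, and 0 of the 3 passed the threshold. RPS27A, which is made as a fusion with ubiquitin, had 644.0 and 713.7 normalized CPM in siControl and 669.7 and 757.0 in siLOC730101. The groups overlapped, and the log2 fold change was 0.071 (adjusted p = 0.817, edgeR). RPL36AL, the expressed retrocopy of RPL36A, had 81.0 and 85.2 normalized CPM in siControl and 91.6 and 115.7 in siLOC730101 (log2 fold change 0.32, adjusted p = 0.222, edgeR).

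In the annotation of the table, 33 members carry 68 snoRNA genes within their bounds on the same strand. Their median log2 fold change of 0.28 was that of the other 45 members, 0.28. The members lie on 21 chromosomes, with 12 on chromosome 19.

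The other genes of ribosome production and of TOP mRNA control were taken from lists. The number called in either direction was 0, and as 0.284% of all genes tested were called in edgeR, lists of this size would hold few or none at that share. FAU, whose product is cut into a ribosomal protein and a ubiquitin-like part, and RACK1, a scaffold on the small subunit, had log2 fold changes of 0.35 and 0.16. FAU had 151.5 and 157.8 normalized CPM in siControl and 171.8 and 222.1 in siLOC730101 (adjusted p = 0.169, edgeR). Of the 6 paralogs of ribosomal protein genes that were tested, 5 had a log2 fold change above 0, with a median of 0.19. RPL22L1, the paralog of RPL22, had 220.8 and 233.0 normalized CPM in siControl and 261.2 and 282.8 in siLOC730101 (log2 fold change 0.26, adjusted p = 0.17, edgeR), while RPL22 itself stayed near 0. The highest value was that of RPL3L, 0.58, at no more than 1.31 normalized CPM, and the lowest that of RPL7L1, -0.0026.

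Other TOP mRNAs, which encode elongation and initiation factors and abundant RNA-binding proteins, had a median log2 fold change of 0.072, and 13 of the 16 tested were above 0. EEF1B2, of the exchange factor of elongation, had the highest value, 0.29 (adjusted p = 0.177, edgeR), and PABPC1, the poly(A)-binding protein, the lowest, -0.041 (adjusted p = 0.882, edgeR). EEF1A1, the most abundant of them, had 10002 and 10846 normalized CPM in siControl and 10063 and 11313 in siLOC730101, a log2 fold change of 0.036. The summed normalized CPM of these genes overlapped between the groups, with 24289 and 25781 in siControl and 24720 and 26949 in siLOC730101.

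Ribosome assembly factors had a median of 0.063, with 35 of 49 above 0. NHP2, a protein of the snoRNPs that guide pseudouridylation, had the highest log2 fold change, 0.38 (adjusted p = 0.177, edgeR), and NOP2, an rRNA methyltransferase, the lowest, -0.46 (adjusted p = 0.849, edgeR) at no more than 1.004 normalized CPM. The 7 chaperones that guard single ribosomal proteins were all above 0, with a median of 0.12, the highest being AAMP with 0.18 and the lowest GRWD1 with 0.049. Among 11 genes that control TOP mRNAs, 8 were above 0 and the median was 0.047. EIF4EBP1, an inhibitor of translation initiation, was highest with 0.27 (adjusted p = 0.438, edgeR) and RPS6KB1, a kinase of RPS6, lowest with -0.12 (adjusted p = 0.745, edgeR). LARP1, which binds TOP tracts, had a log2 fold change of -0.024 and MTOR of 0.044. The medians of these 3 lists and of the other TOP mRNAs all lay below the 0.28 of the ribosomal protein genes. The lists were not matched to the members by mRNA length. They hold genes with a long canonical mRNA, such as EEF1A1 (3512 bases) and MTOR (8721 bases). Whether these cells express the canonical forms of the listed genes was not examined. The differences between lists were not tested.

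The number of members called differed between settings of the analysis more than the median did. Members called higher numbered 9 with DESeq2 size factors (against 0.196% of all genes tested), 9 with upper-quartile factors (0.196%) and 11 with library size only (0.3%). The robust fit gave 9 (0.248%), the added pseudogene counts 10 (0.239%) and the fit with the legacy method off 14 (0.45%). Counts divided by 2, to allow for mates counted apart, gave 16 (0.667%). A mean count over 50, which kept 77 members, gave 18 (0.99%), and no filter beyond 1 count gave 44 (1.01%). The fit with the replicate number as a block gave 56 (2.51%). Lower members numbered 0 in each of these settings and whichever library was left out. Lower genes were 0.0724%, 0.0982% and 0.181% of all genes tested with the 3 other scalings in the order given, 0.0879% in the robust fit, 0.0832% with pseudogene counts, 0.124% with the legacy method off and 0.207% with counts divided by 2. They were 0.351% and 0.354% with the 2 filters, 0.863% with the block, 0.237% and 0.127% without siControl replicate 1 and 2, and 1.27% and 0.277% without siLOC730101 replicate 1 and 2.

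**Figure D5:**
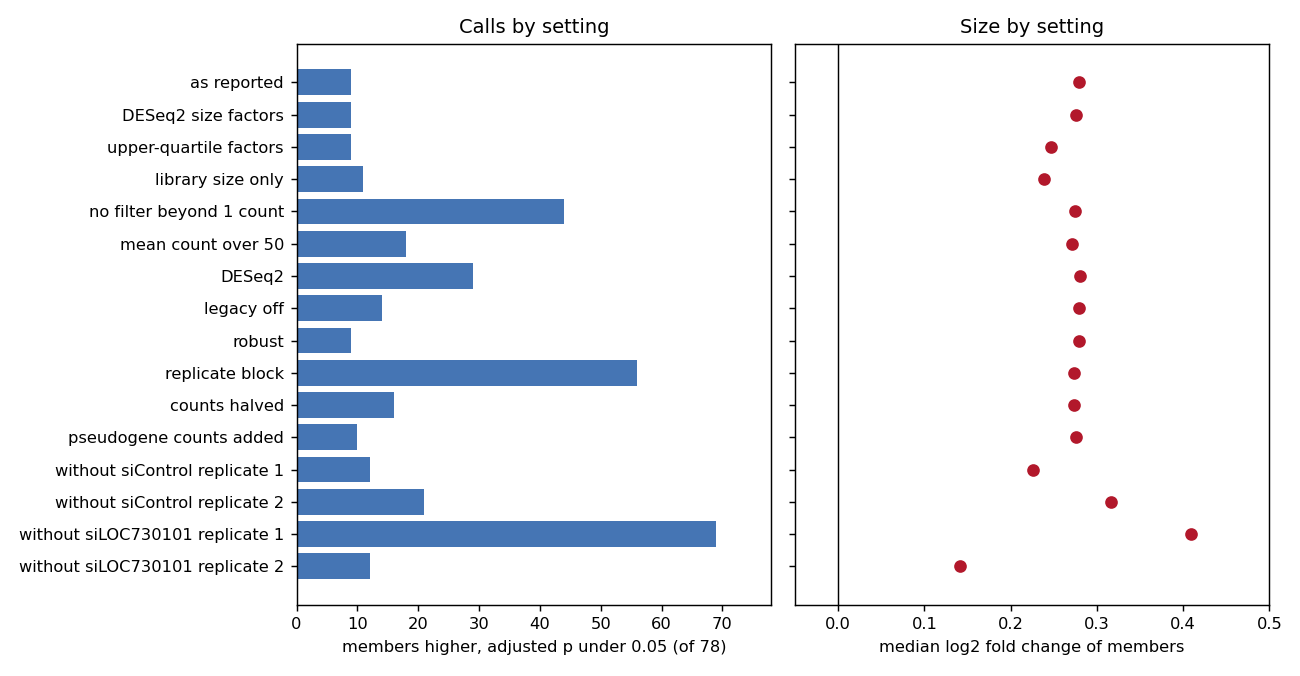
Left, the number of members called higher under each setting of the analysis. It is out of 78, except 77 with a mean count over 50 and 74 with an adjusted p in DESeq2. Right, the median log2 fold change of the members under the same setting. The number ran from 9 as reported to 69 without siLOC730101 replicate 1, and the median stayed between 0.14 and 0.41, above 0 in every setting shown.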

How the data were processed

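The data are RNA-seq of 4 DaroR libraries, 2 siControl and 2 siLOC730101, grouped by their titles. The deposited values are counts: after trimming by Trim Galore, the authors aligned the reads (STAR in the methods of the paper, BWA in the submitters' processing notes), counted exons per gene name with featureCounts 2.0.1 on hg38 with gencode 41 per the file headers, and deposited the counts without normalization. The methods name hg19 with an older annotation. Counts were analysed with edgeR 4.0.16 in R 4.3.3, with filterByExpr, TMM and glmQLFit in its legacy mode, with the condition as the only term; p-values were adjusted by Benjamini-Hochberg across 19349 genes, with a threshold of 0.05. Standard errors come from the coefficient and its F statistic. DESeq2 1.42.0 was an alternative. Replicate pairs did not hold the same counts (chi-square per degree of freedom 8.96 in siControl and 10.3 in siLOC730101). The ratios between replicates add 0.5 CPM for all genes and members alike. Coding and mRNA lengths are those of canonical gencode 44 transcripts, matched by name for all 78 members, and trends were lowess fits with a span of 0.3 (statsmodels 0.14.6). Genes were named by a rule: called members, the 5 highest and lowest log2 fold changes and levels per kilobase, members with roles of their own, and, of other lists, the called genes or else the highest and lowest. Members, lists and rule were chosen with earlier results of these data known. RPL39, RPS28, RPL37, RPL3, RPL4, FAU, RACK1, EEF1A1, LARP1, MTOR and RPL22L1 were named in addition. Some genes that the rule names are not reported here.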

Additional observations from a re-analysis of the deposited data

How the results depend on the processing

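The median log2 fold change of the members stayed above 0 under every alternative tried. It was 0.083 after a trend on mRNA length and 0.16 after one on coding length, and ranged from 0.14 to 0.41 when libraries were left out. The number of members called higher was 9 to 11 with the other scalings, the robust fit and added pseudogene counts. It was 44 with no filter beyond 1 count, 18 with a mean count over 50, 29 with DESeq2, 14 with the legacy method off, 16 with halved counts, and 12 to 69 when libraries were left out, where the lone sample of an arm is assumed to vary like the other group. It was 56 with the replicate block, against 2.51% of all genes tested. The labels do not say whether a number marks a shared culture. The deviations of same-numbered libraries had a correlation of -9.0e-04 across genes, which cannot show whether these libraries shared a culture or a day. Replicate 2 lay above replicate 1 in 71 of the 78 members in siControl and in 75 in siLOC730101. No alternative gave a lower member. The difference in the share of counts ranged from 0.531 to 1.48 percentage points when libraries were left out. The cause of these changes was not tested. The alternatives on mRNA length, coding length and shared exons were chosen after seeing the data.

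Among the members named, directions turned in RPS10, RPS23, RPL36A, RPS27A, RPLP1, RPS12 and RPL22, which had not passed the threshold. RPS10 had log2 fold changes of -0.0025 with DESeq2 size factors, -0.028 with upper-quartile factors, -0.033 with library size only, -0.0037 with no filter beyond 1 count, -0.0095 with a mean count over 50, -0.0060 with the replicate block, -0.058 after a trend on exon length, -0.28 on mRNA length and -0.12 on coding length, and -0.24 to 0.21 without single libraries. RPS23 had -0.0046 with library size only, -0.10 after the trend on coding length and -0.019 to 0.090 without single libraries. RPL36A had -0.032 with pseudogene counts added, -0.17 and -0.11 after the trends on mRNA and coding length, and -0.15 to 0.24 without single libraries. RPS27A had -0.15 and -0.052 after these trends and -0.022 to 0.17 without single libraries, RPLP1 had -0.024 and -0.034, and RPS12 had -0.15 on mRNA length. RPL22 had -0.10 to 0.042 without single libraries. Depth limits RPS10, RPL36A and RPL17, with at most 263 counts in a library.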
